A study of Mus musculus with 12 samples.

Results

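The genes described here make, store and break down glycogen: Ppp1r3b, Ppp1r3c, Ugp2, Gys1, Gbe1, Pygl and Pygb. These 7 genes, of 12542 with a tested probe, were chosen by their function and because Ppp1r3b was lower in S1Pcko cartilage, and the question was whether the other members followed it. The values that selected Ppp1r3b are therefore given for it without a test. Expression was measured on 12 arrays (Illumina MouseWG-6 v1.1) in RNA of C57BL/6 mouse embryos at E16.5. S1Pcko embryos were S1P f/f;Col2-Cre, in which Cre driven by the type II collagen promoter removes site-1 protease (S1P) from chondrocytes. A WT littermate could be S1P f/+;Col2-Cre, or S1P f/+ or S1P f/f without Cre, so Cre and 1 deleted allele may be present in WT. Of each genotype, 2 arrays held cartilage of the chondroepiphysis, 3 held entire long bones with their cartilage and bone, and 1 held calvaria, the skull vault. Both cartilage arrays of a genotype appear to be 2 amplifications of RNA from 1 embryo, so n counts arrays and the p values leave out the spread between embryos. The labels also mark array 1929 of WT long bone as a second amplification of the RNA of array 1923, and array 1930 of S1Pcko long bone as a second amplification, without saying whether of 1922 or 1924. Long bone therefore had 2 distinct samples per genotype on 3 arrays, and its standard errors and intervals rest in part on technical spread.

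Glycogen is a branched store of glucose. UDP-glucose is added to a growing chain by glycogen synthase, branches are made by a branching enzyme, and glycogen phosphorylase removes glucose from the chain ends. Targeting subunits of the PPP1R3 family bring protein phosphatase 1 to the glycogen particle, where it activates the synthase and inactivates the phosphorylase. Chondrocytes of the growth plate are known to store glycogen. S1P itself cleaves the membrane-bound transcription factors SREBP and ATF6 and thereby activates them.

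An array detected 20555 to 21978 of its 46643 probes at a detection p under 0.05. Levels are normalized log2 intensities, on which 1 unit is a 2-fold difference and the lowest detected probe stood between 4.96 and 5.09. The members have 11 probes, of which 10 passed the filter, detection on 2 or more of the 10 arrays of cartilage and long bone, and were tested, and each gene is given by its brightest tested probe. A gene is called where the limma fit gave an adjusted p under 0.05 and a difference of at least 2-fold. Mbtps1, which encodes S1P, was lower by only 0.22 in S1Pcko cartilage (adjusted p = 0.653), and whether its probes lie in the deleted part was not checked. The mean of 8 cartilage markers was 12.87 to 13.43 in cartilage, 12.11 to 13.15 in long bone and 10.79 to 10.99 in calvaria. Array 1921, 1 of 2 WT long bone samples, differed from the other sample, on arrays 1923 and 1929, with more signal of cartilage and granulocyte markers. Array 1922 of S1Pcko long bone differed from 1924 and 1930, with more of muscle and granulocyte markers. Fewer cells of a type and less RNA per cell cannot be told apart in such bulk samples.

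The promoters of Pygl, which fell in S1Pcko cartilage, and of Ppp1r3c, the member whose level varied most like that of Pygl, are shown because S1P acts through transcription factors. Each spans 250 bases before to 50 after the start of transcription, from RefSeq on GRCm38.p6, on the minus strand at chr12:70227634-70227933 for Pygl and chr19:36736555-36736854 for Ppp1r3c. An entry was matched for 6 of the 7 members, all but Ppp1r3b, whose promoter was therefore not searched. Capitals mark a match, on either strand, to one of 4 motifs.
Pygl: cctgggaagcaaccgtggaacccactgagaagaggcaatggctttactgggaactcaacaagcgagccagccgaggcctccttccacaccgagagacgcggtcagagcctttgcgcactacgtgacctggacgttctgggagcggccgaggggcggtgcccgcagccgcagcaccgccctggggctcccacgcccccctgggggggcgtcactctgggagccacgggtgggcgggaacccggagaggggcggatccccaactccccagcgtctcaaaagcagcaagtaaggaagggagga
Ppp1r3c: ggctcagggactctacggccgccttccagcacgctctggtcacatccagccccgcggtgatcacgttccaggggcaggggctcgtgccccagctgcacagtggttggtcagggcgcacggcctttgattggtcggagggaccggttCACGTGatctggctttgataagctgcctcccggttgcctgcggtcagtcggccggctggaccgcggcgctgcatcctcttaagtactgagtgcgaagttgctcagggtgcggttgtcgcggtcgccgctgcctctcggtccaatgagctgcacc
The motifs were the sterol regulatory element TCACNCCAC, found in 1.24% of 32851 promoters of that length, the E-box CACGTG in 7.15%, an ATF4-type site TGATGNAA in 3.97% and an ATF6-type site TGACGTGG in 0.676%. The only match among the 6 members with an entry was the E-box of Ppp1r3c, which starts at position -104 from the start of transcription. Such a match describes letters in the window and no more.

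Ppp1r3b encodes the targeting subunit best known from liver. Its level was 9.32 and 9.58 on the WT cartilage arrays against 7.20 and 7.63 in S1Pcko cartilage. The genotypes did not overlap, and the mean difference of -2.04 corresponds to 4.1-fold less signal in S1Pcko. The second Ppp1r3b probe, probe 6130253, gave 7.36 and 7.31 in WT against 6.01 and 5.33 in S1Pcko cartilage, again without overlap. Both probes followed each other over the 12 arrays (r = 0.92, a description). In long bone, which did not enter the choice of the gene, Ppp1r3b was 8.92, 8.39 and 8.29 in WT and 8.13, 8.28 and 8.31 in S1Pcko. The genotypes overlapped there, and the difference of -0.29 (standard error 0.19, 95% interval -0.70 to 0.12, n = 3 arrays per genotype) was not called (limma, adjusted p = 0.521). The second probe differed by -0.45 in long bone (adjusted p = 0.405).

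The order of the group means of Ppp1r3b, from high to low, was WT calvaria (9.79), S1Pcko calvaria (9.49), WT cartilage (9.45), WT long bone (8.53), S1Pcko long bone (8.24) and S1Pcko cartilage (7.41). S1Pcko calvaria lay within the range of the WT cartilage arrays, and the long bone groups overlapped, so these neighbours were not separated. Each calvaria value is 1 array. WT cartilage was above WT long bone by 0.92, whereas S1Pcko cartilage was below S1Pcko long bone by 0.83, and in neither genotype did the tissues overlap.

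Ppp1r3c encodes protein targeting to glycogen, a widely expressed member of the same family. Its level was 12.29 and 12.14 in WT cartilage and 11.65 and 11.39 in S1Pcko cartilage. The genotypes did not overlap, but the difference of -0.69 (standard error 0.26, 95% interval -1.26 to -0.13, n = 2 arrays per genotype) was not called (adjusted p = 0.155). In long bone it was 11.91, 11.19 and 11.15 in WT against 11.40, 10.90 and 11.12 in S1Pcko. These values overlapped, with array 1921 the highest, and the difference was -0.28 (standard error 0.21, adjusted p = 0.598).

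**Figure D1:**
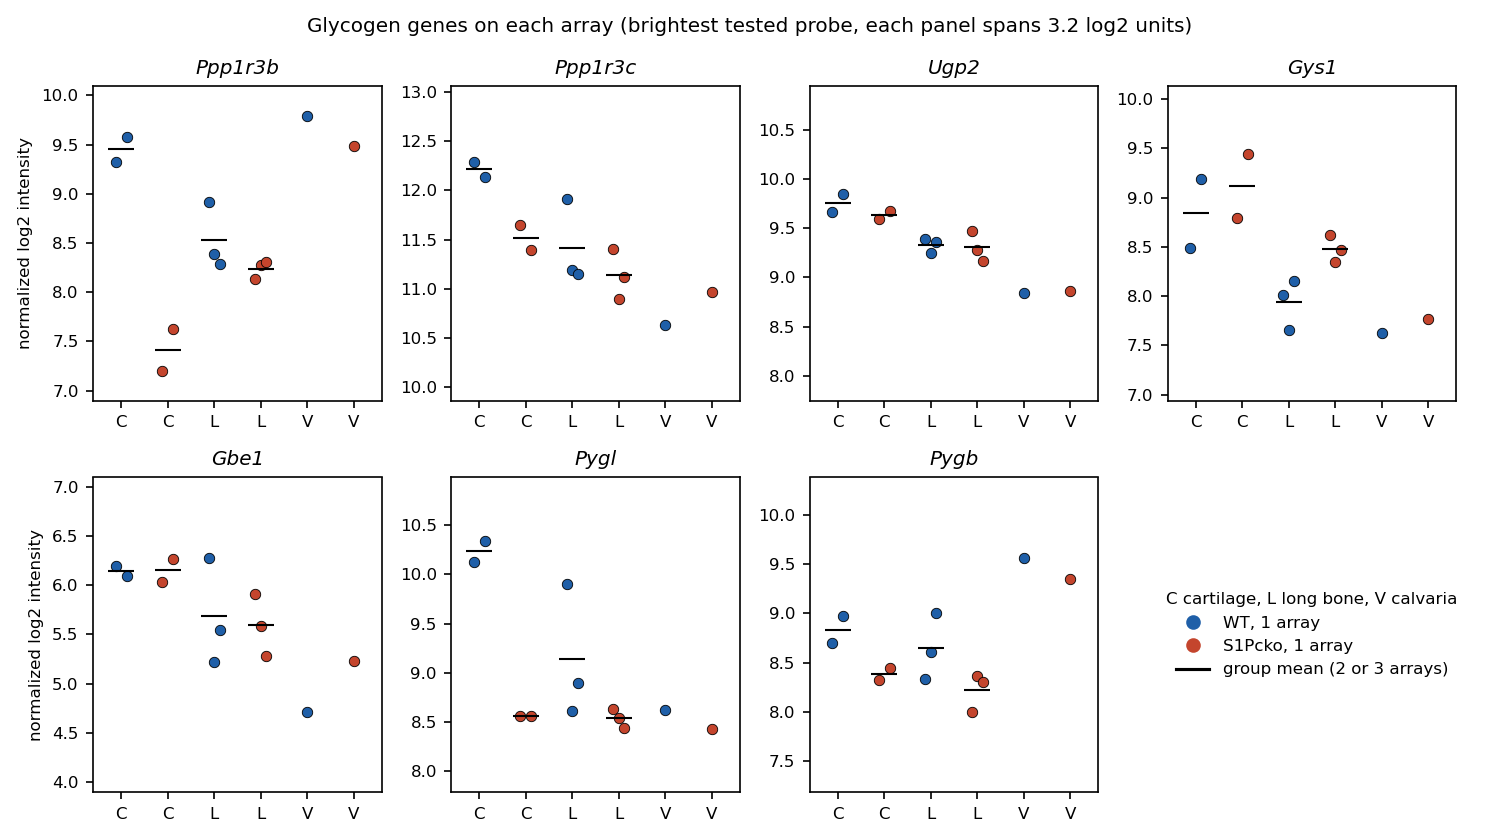
Normalized log2 intensity of the 7 glycogen genes on each array, for cartilage (C), long bone (L) and calvaria (V), in WT (blue) and S1Pcko (red), with the mean of groups of 2 or 3 arrays as a line. Ppp1r3b and Pygl are separated by genotype in cartilage, at 9.45 against 7.41 and 10.23 against 8.56. Ppp1r3c and Pygb are also separated there, by less, at 12.22 against 11.52 and 8.84 against 8.38. For Pygl, 1 WT long bone value, 9.90, lies near the WT cartilage arrays.

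Pygl, the glycogen phosphorylase known from liver, fell in S1Pcko cartilage. Its level was 10.13 and 10.34 in WT cartilage and 8.56 on both S1Pcko cartilage arrays. As deposited, before normalization, the signals were 1393 and 1296 in WT and 447 and 414 in S1Pcko. The difference was -1.67 (standard error 0.32, 95% interval -2.38 to -0.96, n = 2 arrays per genotype, adjusted p = 0.0149), or 3.19-fold lower, and the genotypes did not overlap. Within the first amplification round the difference was -1.57, and within the second it was -1.77. The call was lost on leaving out any 1 of the 4 cartilage arrays 1919, 1927, 1920 or 1928 (adjusted p = 0.0797 to 0.107) and without moderation of the spread (adjusted p = 0.0997). With the amplifications averaged before the fit, which leaves 1 value per genotype in cartilage, adjusted p was 0.314 or 0.514, depending on the array with which 1930 was averaged, at the same difference.

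In long bone Pygl was 9.90, 8.61 and 8.90 in WT and 8.63, 8.54 and 8.44 in S1Pcko. The spread of WT came from array 1921, and the genotypes overlapped. The difference was -0.60 (standard error 0.26, 95% interval -1.18 to -0.02, n = 3 arrays per genotype, adjusted p = 0.318) and -0.22 without array 1921 (adjusted p = 0.513). The genotype difference of Pygl in cartilage minus that in long bone was -1.07 (standard error 0.42, adjusted p = 0.266), which was not called. Without array 1921 this difference of differences was -1.45 and was called (adjusted p = 0.0122), but WT long bone was then represented by 2 amplifications of the same RNA.

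Pygb, the phosphorylase known from brain, was 8.70 and 8.97 in WT cartilage and 8.32 and 8.44 in S1Pcko cartilage. The genotypes did not overlap, but the difference of -0.46 (standard error 0.22, 95% interval -0.95 to 0.03) was not called (adjusted p = 0.277). In long bone it was 8.33, 8.61 and 9.0 in WT and 8.0, 8.36 and 8.30 in S1Pcko, where the genotypes overlapped and the difference was -0.43 (standard error 0.18, adjusted p = 0.298). Both phosphorylases thus had lower means in S1Pcko in both tissues, and the test was passed by Pygl in cartilage alone among these 4 comparisons.

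The members that build glycogen gave no call between genotypes. Ugp2 encodes the enzyme that makes UDP-glucose, which is also a precursor of the glycosaminoglycan chains of cartilage matrix. It was 9.66 and 9.85 in WT cartilage and 9.59 and 9.67 in S1Pcko cartilage, which overlapped, and the difference was -0.13 (95% interval -0.48 to 0.22, adjusted p = 0.717). In long bone the difference of Ugp2 was -0.03 (95% interval -0.31 to 0.26, adjusted p = 0.955).

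Gys1, the glycogen synthase of muscle and most other tissues, had 3 tested probes. Its brightest, probe 2340142, gave 8.49 and 9.19 in WT cartilage and 8.79 and 9.44 in S1Pcko cartilage. In both genotypes the second amplification was the higher, and the genotype difference was 0.31 within the first round and 0.25 within the second. The fitted difference of 0.28 (standard error 0.27, 95% interval -0.32 to 0.88) was not called (adjusted p = 0.626). In long bone Gys1 was 8.01, 7.66 and 8.15 in WT and 8.62, 8.35 and 8.47 in S1Pcko. Here the genotypes did not overlap, with S1Pcko higher by 0.54 (standard error 0.22, 95% interval 0.05 to 1.03, adjusted p = 0.285), which was not called. Probe 1090563 of Gys1 was likewise higher in S1Pcko by 0.39 in cartilage and 0.36 in long bone (adjusted p = 0.362 and 0.386). Probe 540154 was detected on 2 of the 12 arrays, 1923 and 1929 of WT long bone, at 5.98 and 5.87, and not above background in any other group. These are 2 amplifications of the same RNA, and through them alone the probe passed the filter. On array 1921, the other WT long bone sample, it was at 4.72, also not above background, and on the S1Pcko long bone arrays at 4.64 to 4.71.

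Gbe1 encodes the branching enzyme. Its tested probe gave 6.20 and 6.09 in WT cartilage and 6.03 and 6.27 in S1Pcko cartilage, so the genotypes overlapped around the same mean of 6.15 (95% interval of the difference -0.66 to 0.67, adjusted p = 0.997). In long bone it was 6.28, 5.22 and 5.55 in WT and 5.91, 5.59 and 5.28 in S1Pcko (difference -0.09, adjusted p = 0.918), again overlapping, with array 1921 the highest. Probe 2190368, which is annotated to the RefSeq transcript of Gbe1, was not detected on any array (4.29 to 4.43) and was not tested. The tested probe is annotated to a separate cDNA clone, and whether it measures the mRNA of the branching enzyme was not checked.

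**Figure D2:**
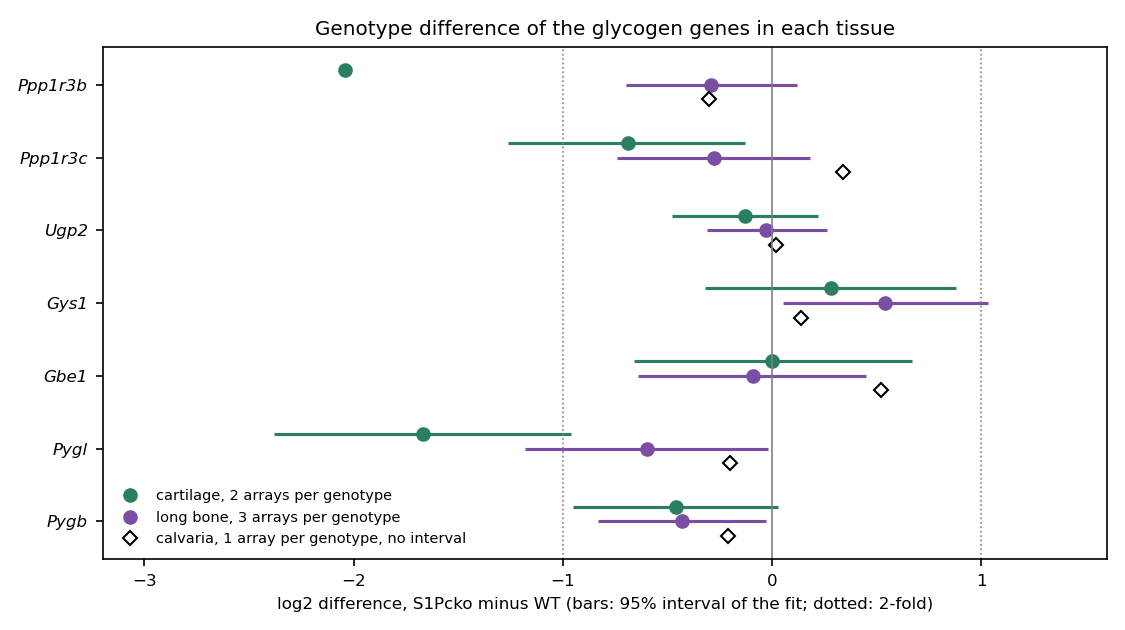
Log2 difference between S1Pcko and WT for each glycogen gene in cartilage (green), long bone (purple) and calvaria (open diamonds), with the 95% interval of the fit where a test was made, and dotted lines at 2-fold. Pygl in cartilage (-1.67) lies past the 2-fold line, Ppp1r3b in cartilage (-2.04) is shown without an interval because that value chose it, and the differences of Gys1 lie above 0.

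Counted over genes, 1 of the 6 members other than Ppp1r3b was called in cartilage, Pygl, and it was lower, whereas 5 were not called. Of the 12542 tested genes 2.7% were called in this comparison and 1.53% were called lower. The median difference of these 6 members was -0.29 against 0.01 over all tested genes, with 4 below and 2 above 0. In long bone 0 of the 7 members were called by limma, against 1.26% of all tested genes, while 3 had an unadjusted p under 0.05 (Gys1 higher, Pygl and Pygb lower), as did 15.4% of all tested genes. Their median was -0.28 against -0.01 over all tested genes. For the difference between the genotype differences of both tissues, 0 of the 6 other members were called, with 1, Pygl, at an unadjusted p under 0.05. Of all tested genes 0.431% were called and 14.8% had such a p. Ppp1r3b and Pygl were both lower in S1Pcko cartilage, and the other 5 members did not pass the test there.

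The comparison of cartilage with entire long bone within a genotype sets a part against the whole, since the long bones still held their cartilage. All 6 members other than Ppp1r3b had higher means in WT cartilage than in WT long bone, with a median difference of 0.63 against 0.03 over all tested genes. Of these 6, 1 was called, against 4.83% of all tested genes. This was Pygl, which was higher in WT cartilage by 1.1 (standard error 0.29, adjusted p = 0.0377, n = 2 and 3 arrays), and the tissues did not overlap. The call was lost on leaving out any array other than 1921 or 1922 (adjusted p = 0.0536 to 0.214). Gys1 was higher by 0.90 (adjusted p = 0.0436) and Ppp1r3c by 0.80 (adjusted p = 0.0548), both under 2-fold. The other tested Gys1 probes did not share this difference. Probe 1090563 differed by 0.03 (adjusted p = 0.956) and probe 540154 by -0.72 (adjusted p = 0.158), so the Gys1 values here are those of the brightest probe alone. Without array 1921, which leaves amplifications of a single WT long bone sample, Ppp1r3c differed by 1.05 and was called (adjusted p = 0.00587), and without array 1919 Gys1 differed by 1.25 and was called (adjusted p = 0.0409). In S1Pcko the same comparison called 0 of the 6, against 1.06% of all tested genes, and 2 had an unadjusted p under 0.05 (Gys1 and Ugp2), as did 15.9% of all tested genes. Probes 1090563 and 540154 of Gys1 differed there by only 0.05 and -0.06 (adjusted p = 0.927 and 0.952). Pygl differed there by 0.03 (95% interval -0.62 to 0.67, adjusted p = 0.978), and its cartilage and long bone arrays overlapped between 8.44 and 8.63.

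Several marker lists were lower in S1Pcko cartilage, as Pygl was, and others were not. The part of other cells in the result was not tested. Granulocytes, which are known to carry liver-type phosphorylase, were followed with 5 measured markers of 9 listed for granulocytes and macrophages. Their mean was 6.27 to 6.65 for WT and 5.19 to 5.36 for S1Pcko cartilage, 8.11 to 10.36 on the WT long bone arrays and 5.38 to 8.09 on those of S1Pcko. On arrays 1921, 1923 and 1929 of WT long bone this mean was 10.36, 8.20 and 8.11, and Pygl was 9.90, 8.61 and 8.90. In WT cartilage Pygl was 10.13 and 10.34. Long bone and cartilage also differ in other cells, and the share of granulocytes in the Pygl signal was not tested. Of the 5, S100a8 (8.75 and 8.38 against 5.74 and 5.82), S100a9 (6.68 and 6.12 against 4.72 and 4.52) and Ltf (6.01 and 5.77 against 4.88 and 4.97) were above the lowest detected level in WT cartilage and lower in S1Pcko cartilage, as Pygl was. Adgre1, a macrophage marker, overlapped between the genotypes (7.36 and 6.67 against 7.03 and 6.30), and Mpo, which defines early granulocytes, was below that level in cartilage of both genotypes (4.31 to 4.46). The mean of 3 hypertrophic chondrocyte markers was 9.71 to 9.93 in WT cartilage and 8.84 to 8.94 in S1Pcko cartilage, and that of 8 cartilage markers was 13.38 to 13.43 against 12.87 to 12.94. Of the 8, Col2a1 went the other way (14.22 and 14.11 against 14.48 and 14.50), Matn1 overlapped and the others were lower in S1Pcko cartilage. Ihh, made by prehypertrophic chondrocytes, was 8.77 and 9.60 in WT cartilage, 7.10 and 7.56 in S1Pcko cartilage, and 8.94 on array 1921 against 7.45 and 7.78 on the other WT long bone arrays. The WT arrays with high Ihh were also those with high Pygl. In S1Pcko long bone Ihh was 7.68, 8.22 and 7.95 on arrays 1922, 1924 and 1930, and Pygl was 8.63, 8.54 and 8.44. The part of prehypertrophic cells in the Pygl signal was not tested. The other hypertrophic markers did not share the order of Pygl, and the mean of the 3 correlated with Pygl at 0.28 over the 12 arrays. Col10a1 was 10.71 and 10.91 in WT cartilage, 9.57 and 9.62 in S1Pcko cartilage and higher still on array 1921 (12.86) and in S1Pcko long bone (11.20 to 11.69). Mmp13 overlapped between the genotypes in cartilage, at 9.66 and 9.29 in WT and 9.84 and 9.64 in S1Pcko. Skeletal muscle markers (8 of 8 measured) had means of 10.95 in WT cartilage and 10.71 to 10.76 in S1Pcko cartilage. Among them, Myh3 was higher in S1Pcko, Acta1 and Myog overlapped, and the others were lower. Adipocyte markers (2 of 4) were 8.36 to 8.51 against 7.61 to 7.70, and erythroid markers (4 of 7) 9.05 to 9.19 against 8.25 to 8.47, among which Klf1 overlapped. Osteoblast markers (5 of 7) went the other way, at 8.69 to 8.78 against 9.57 to 9.61. Of these, Bglap and Ibsp were higher in S1Pcko, Col1a1 and Sp7 overlapped, and Dmp1 was below the lowest detected level. The mean of osteoclast markers (4 of 6) was also higher in S1Pcko, at 6.77 to 6.96 against 7.32 to 7.39. Ctsk and Ocstamp were higher, Oscar met at 6.31, and Acp5 was below the lowest detected level. Endothelial markers (4 of 4) overlapped, at 8.37 to 8.51 against 8.30 to 8.55.

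**Figure D3:**
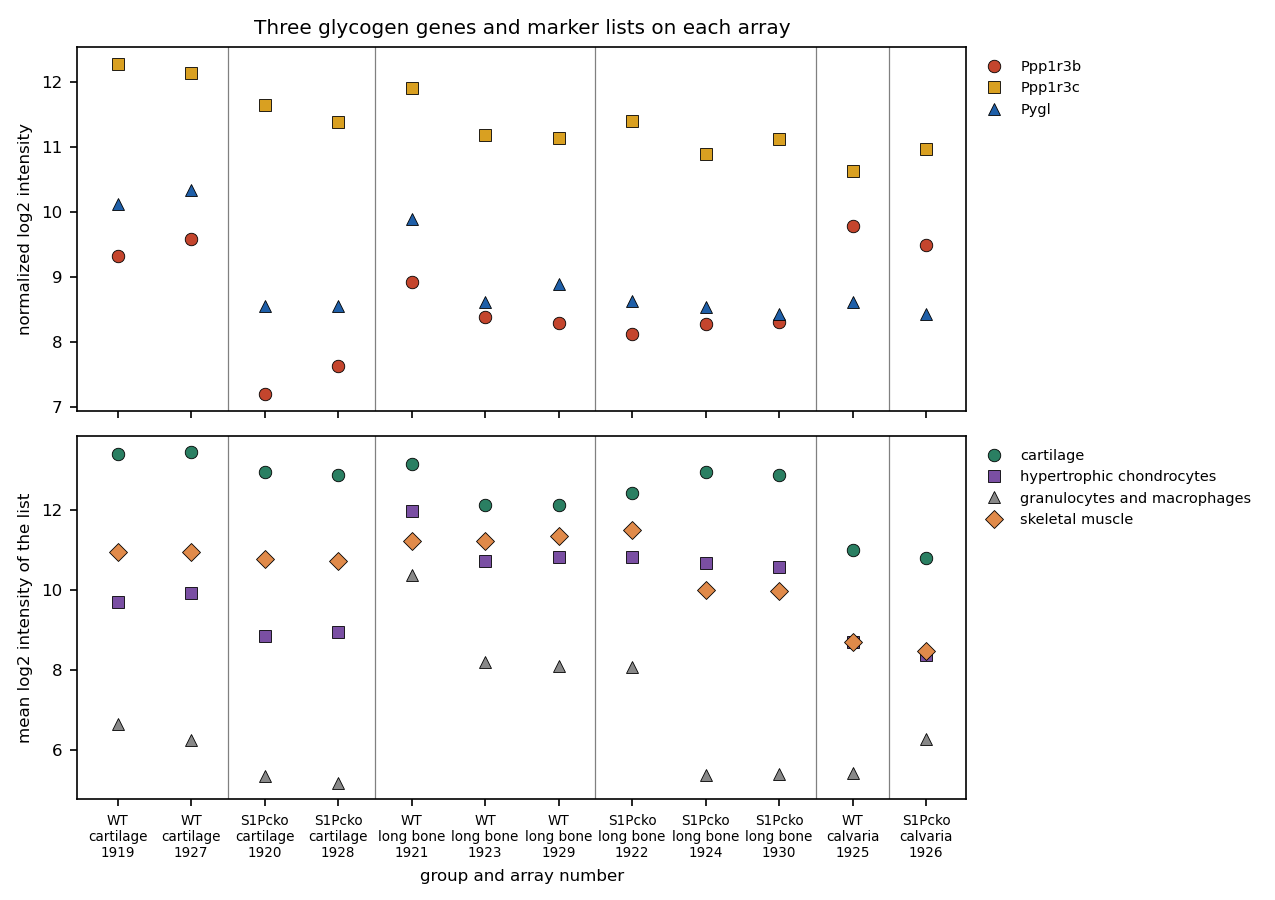
Normalized log2 intensity of Ppp1r3b, Ppp1r3c and Pygl (upper panel) and mean log2 intensity of 4 marker lists (lower panel) on each array, named by group and array number; levels of different genes are not comparable with each other. Array 1921 of WT long bone is the highest of its group for Ppp1r3b (8.92), Ppp1r3c (11.91) and Pygl (9.90) and for the cartilage, hypertrophic and granulocyte lists.

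In calvaria, with 1 array per genotype and no test, no member differed by 2-fold, against 1.39% of all tested genes. Ppp1r3b was 9.79 in WT and 9.49 in S1Pcko, and Pygl was 8.62 and 8.43. The differences of the 7 members ran from -0.30 for Ppp1r3b to 0.52 for Gbe1, with a median of 0.02 against -0.01 over all tested genes. The tested probe of Gbe1 was not detected in WT calvaria (4.71) and was detected in S1Pcko calvaria (5.23). Ppp1r3c was 10.63 in WT and 10.97 in S1Pcko, Gys1 7.63 and 7.77, Ugp2 8.84 and 8.86, and Pygb 9.56 and 9.35. Calvaria, which form bone without a cartilage stage, thus held the highest group levels of Ppp1r3b and Pygb and the lowest of Ppp1r3c, Ugp2, Gys1 and Gbe1. For Ppp1r3b, Ppp1r3c, Gys1 and Gbe1 the S1Pcko calvaria array lay within the range of another group, so only Pygb and Ugp2 were separated.

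The genes whose levels were most like that of Ppp1r3b over the 12 arrays were Smpdl3a (Pearson r = 0.97), Tradd (0.94), Umad1 (0.93), Scp2 (0.92) and Hhip (0.92). Smpdl3a encodes a phosphodiesterase related to acid sphingomyelinase, Scp2 a lipid carrier, and Hhip an inhibitor of hedgehog ligands. The members were less alike, with r = 0.72 for Pygb, 0.49 for Pygl, 0.06 for Ppp1r3c, -0.32 for Gbe1, -0.33 for Ugp2 and -0.43 for Gys1. In calvaria Ppp1r3b stood at its highest group level and Pygl near its lowest. Ppp1r3c correlated with Pygl at 0.85, more than with Ppp1r3b. These correlations describe 12 arrays that share embryos, tissues and amplifications.

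A wider list held 26 further genes of glycogen metabolism, of which 22 had a tested probe. None of the 22 was called by limma in cartilage or in long bone, against 2.7% and 1.26% of all tested genes. In cartilage 5 (22.7%) had an unadjusted p under 0.05, near the 21.5% of all tested genes, and in long bone 0 did, against 15.4%. The differences in cartilage ran from -0.69 (Ppp1r3g) to 0.55 (Stbd1), with 14 below and 8 above 0 and a median of -0.13. For long bone the median was -0.02. The genes that failed the detection filter were Gys2, the liver glycogen synthase, Ppp1r3a, the muscle targeting subunit, Phkg1 and Pgm2. Gys2 was at 4.43 to 4.70 and Ppp1r3a at 4.28 to 4.48 over all arrays, never detected.

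Among the paralogs, Pygm, the muscle phosphorylase, was 6.16 and 6.34 in WT cartilage and 5.82 and 6.13 in S1Pcko cartilage (difference -0.28, adjusted p = 0.814). In S1Pcko long bone Pygm was 7.33 on array 1922 against 5.44 and 5.58 on the others, and the mean of the muscle markers was 11.49 there against 9.98 on array 1930 and 10 on array 1924. Ppp1r3g was 8.33 and 8.03 in WT cartilage and 7.49 on both S1Pcko cartilage arrays, without overlap (difference -0.69, standard error 0.42, adjusted p = 0.399). Between WT tissues 1 of the 22 genes was called, Ppp1r3g, against 4.83% of all tested genes. In S1Pcko 0 were called, against 1.06%. Ppp1r3g was higher in WT cartilage than in WT long bone by 1.55 (standard error 0.38, adjusted p = 0.0281), while its second probe differed by 0.33 (adjusted p = 0.155). Within WT long bone, Ppp1r3g was 7.65 on array 1921 against 6.24 and 6.0 on arrays 1923 and 1929. Ppp1r3d, Ppp1r3e and Ppp1r3f differed between genotypes in cartilage by -0.06, -0.11 and -0.29 (adjusted p = 0.922, 0.866 and 0.501). Probe 3360452 of Epm2aip1, which encodes a partner of the glycogen phosphatase laforin, was chosen after its values were seen. It was 7.27 and 7.28 in WT cartilage and 6.26 and 6.21 in S1Pcko cartilage (-1.04, a description). Probe 102450156 of the same gene was 7.47 and 7.82 in WT against 7.26 and 7.03 in S1Pcko cartilage. The brightest probe of Epm2aip1 differed by -0.58 (adjusted p = 0.129), so the gene was not counted as called.

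**Figure D4:**
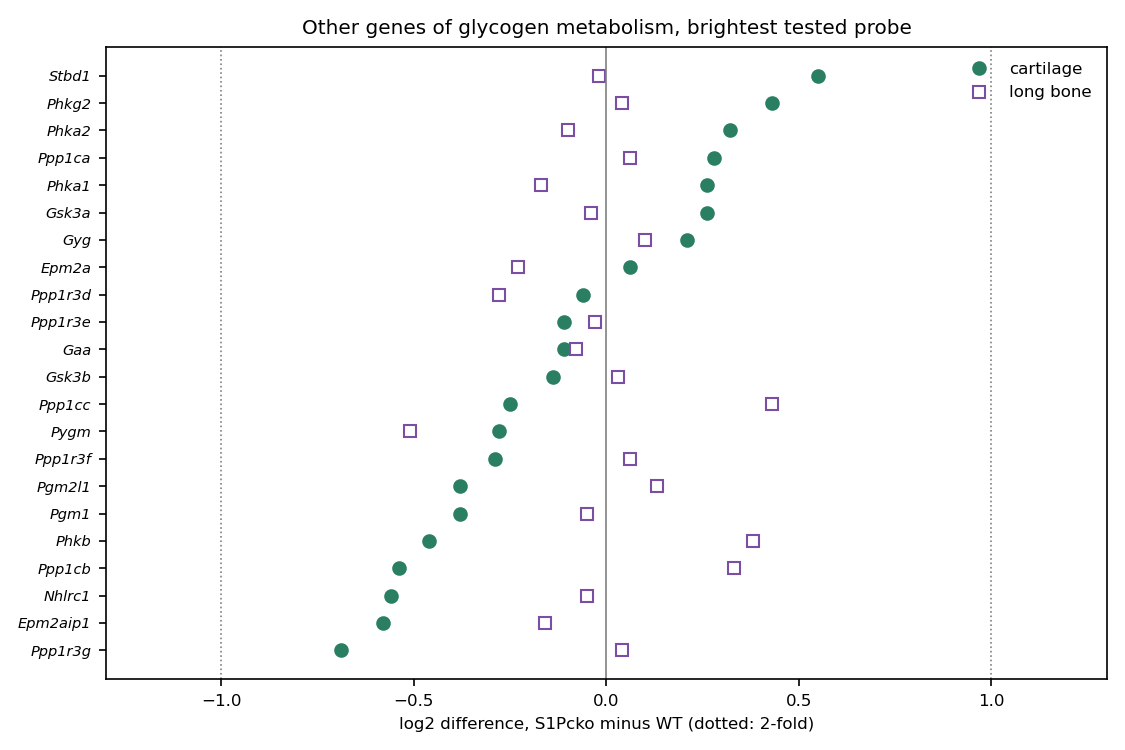
Log2 difference between S1Pcko and WT for the 22 tested genes of the wider list, in cartilage (filled circles) and long bone (open squares), sorted by cartilage, with dotted lines at 2-fold. All points lie between -0.69 and 0.55, inside the 2-fold lines.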

How the data were processed

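The authors deposited signals of 46643 probes as intensity values without normalization, each with a detection p-value against the negative controls of its array, and a second table of intensity values that are background-subtracted and quantile normalized as judged from the values. The scanner software is not given in the sources used here. Signals were corrected and quantile normalized with neqc (limma 3.58.1, R 4.3.3, offset 16) across the 12 arrays. The 23744 probes detected on 2 or more of 10 arrays were fitted with limma as 4 groups (6 residual degrees of freedom, prior 5.13), with Benjamini-Hochberg adjustment over all of them. Thresholds of 5% FDR and 2-fold are those of the methods. Probes were named by the platform annotation: 32794 had 1 symbol, 55 several and 13794 none. All members and their probes are described, paralogs and called genes of the wider list are named, and the 5 genes most like Ppp1r3b. Members and lists were chosen with earlier results of these data known. The fit was tested on simulated data.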

Additional observations from a re-analysis of the deposited data

Results flagged for a closer look

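The genotype difference of Ppp1r3b was larger in cartilage than in long bone, by -1.75 on the log2 scale, and its tissues differed in opposite directions in WT and S1Pcko. This value holds the cartilage comparison that chose the gene, so it is a description and no p is given.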

How the results depend on the processing

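Over 24 alternatives per comparison, 861 values of single members were recomputed. Of these 826 kept their direction and their side of the threshold or moved by less than the spread between arrays, 23 lost and 3 gained a call, 9 moved further and 0 called values changed sign, while 23 uncalled values did. Pygl stayed lower in S1Pcko cartilage in 24 of 24 alternatives, from -1.78 to -1.53, and was called in 16. Its call there was lost without moderation (-1.67, adjusted p = 0.0997), with the first amplification round alone (-1.57, adjusted p = 0.529) and with amplifications averaged (-1.67, adjusted p = 0.314 and 0.514), each of which then called 0 of the other 6 members. Leaving out 1 array gave -1.78 to -1.57 for Pygl and 0 to 1 members. Its difference between WT tissues was lost as a call with the authors' values (1.12, adjusted p = 0.0613), without a detection filter (1.1, adjusted p = 0.0937), without moderation (1.1, adjusted p = 0.142), with only both groups fitted (1.1, adjusted p = 0.0836), with the first round alone (0.88, adjusted p = 0.478) and with averaging (0.91, adjusted p = 0.354 and 0.459), each leaving 0 members. Leaving out 1 array gave 0.84 to 1.48 for Pygl and 0 to 2 members, and 0 to 1 members for the difference between the genotype differences. The cause was not tested. Ppp1r3b in long bone was -0.45 to -0.10 over the alternatives and never called (adjusted p = 0.305 to 0.833). With the amplification round as a replicate block, Pygl was -1.67 in cartilage (adjusted p = 0.0181) and 1.12 between WT tissues (adjusted p = 0.0409), and the block changed no call. Arrays of the same round deviated together in cartilage (correlation 0.47) and not in long bone (0.02), so the round was not taken as pairing. The 2 cartilage arrays per genotype limit what could be found, and Gbe1 and 1 Gys1 probe lay near the detection limit.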
